A study of Rattus norvegicus with 6 samples.

Results

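The genes described here are 41 named cell cycle genes, of 28615 gene names in the 4 time-course tables. They are listed by name and function, in a list drawn up with earlier results of these data known: 18 act in DNA replication, 21 act in mitosis, and 2, Ccnd1 and Cdkn1a, stand apart from both lists. All 41 were measured in the time course. In the 2 injected libraries, whose tables hold 25054 symbols, 39 of the 41 were measured, and E2f1 and Ccnb2 were not analysed there.

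The libraries hold single cells of injured spinal cord, counted as UMIs, tags that mark each captured RNA molecule once. Per the labels the animals were rats of the genotype SD, 6 to 8 weeks old, with 5 animals for each condition, and every library covers all cells of a 5-mm piece of cord after collagenase and trypsin digestion, a 40-µm strainer and lysis of erythrocytes. A time course of 4 groups compares intact cord with cord taken at day 1, day 3 and day 7 after a crush injury. The title of the intact library calls it intact, while its treatment label names the crush, as for the other libraries, and it is used here by its title. The other groups were crushed, injected at day 3 after injury with a drug labelled MPSS (10 mg/ml in PBS) or with PBS alone, at 5 sites with 1 µl each, and collected 2 weeks after injury. Each group is 1 library, so no difference has a replicate check, the day and the library cannot be told apart, and no test or p-value is given. Intervals are exact 95% intervals and cover counting error only. The time-course tables name genes as in mouse (567 names are mouse Ensembl identifiers and 0 are rat ones) although the labels give rat, and the injected tables use rat symbols, so levels are compared only within the time course or between the 2 injected libraries.

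Cells copy their DNA in S phase and divide in M phase. Replication genes are switched on around entry into S phase by E2F factors, and many mitosis genes are held back by the DREAM complex and switched on later, in G2, by B-MYB and FOXM1 through a promoter element called CHR. Spinal cord injury is known for dividing microglia, the resident phagocytes of the cord, beside dividing oligodendrocyte precursors, endothelial cells and fibroblasts, while macrophages arrive from the blood.

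The promoters of 6 members that carry the motifs are printed as examples. Not every member of a list carries them, and the counts over all matched promoters follow below. The window searched held 250 bases before and 50 bases after the start of each gene in RefSeq's rat assembly GRCr8. The capitals mark matches, on either strand, to E2F letters (TTTGGCGC, TTTCCCGC, TTTCGCGC or TTTGCCGC), to the CHR (TTTGAA) or to the CCAAT box (CCAAT). A match on the opposite strand reads as the reverse complement, and matches may overlap one another. Printed are the last 120 bases before the start, for 3 replication genes (Mcm2, Mcm5 and Pclaf) and 3 mitosis genes (Ccnb2, Cdk1 and Cdc20), on strand − or + as given.
Mcm2, chr4:122918095-122918214, strand −: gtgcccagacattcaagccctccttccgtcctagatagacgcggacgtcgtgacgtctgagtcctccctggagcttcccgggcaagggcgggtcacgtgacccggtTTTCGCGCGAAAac
Mcm5, chr19:13488693-13488812, strand +: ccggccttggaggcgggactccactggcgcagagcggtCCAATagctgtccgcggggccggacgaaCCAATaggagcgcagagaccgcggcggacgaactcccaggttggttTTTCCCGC
Pclaf, chr8:75315597-75315716, strand +: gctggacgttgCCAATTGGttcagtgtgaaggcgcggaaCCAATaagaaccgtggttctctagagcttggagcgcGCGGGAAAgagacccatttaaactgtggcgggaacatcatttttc
Ccnb2, chr8:79981659-79981778, strand −: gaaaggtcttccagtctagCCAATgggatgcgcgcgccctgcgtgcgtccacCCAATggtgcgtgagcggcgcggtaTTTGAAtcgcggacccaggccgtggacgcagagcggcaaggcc
Cdk1, chr20:19265173-19265292, strand +: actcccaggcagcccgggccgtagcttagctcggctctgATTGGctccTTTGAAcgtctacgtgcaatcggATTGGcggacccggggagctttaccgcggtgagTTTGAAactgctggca
Cdc20, chr5:137255800-137255919, strand −: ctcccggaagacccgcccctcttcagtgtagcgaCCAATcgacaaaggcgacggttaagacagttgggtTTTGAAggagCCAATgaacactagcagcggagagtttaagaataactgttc

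A promoter was matched for 14 of the 18 replication genes and 17 of the 21 mitosis genes, and the first one listed was used for Uhrf1 and Dut, which have more than 1. E2F letters stood in 7 of the 14 replication promoters (50%) and in 1 of the 17 mitosis promoters (5.88%, Cdk1), against 2.14% of all 33469 promoters of the same length, and 2.25% of all 27457 genes by their first promoter. The CHR stood in 13 of the 17 mitosis promoters (76.5%) and in 1 of the 14 replication promoters (7.14%, Mcm2), against 18.3% of all. With any listed promoter of a gene, an alternative chosen after seeing the data, the replication genes with E2F letters became 8, with Uhrf1, and those with a CHR 2, with Dut, and the mitosis counts were the same. A CHR and a CCAAT box occurred together in 12 of the 17 mitosis promoters (70.6%) and in 0 of the 14 replication promoters, against 7.41% of all. CCAAT alone stood in 64.3% of the replication and 82.4% of the mitosis promoters, against 37.5% of all. A match describes the letters in this window and is not a site shown to be bound.

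The 4 time-course libraries held between 2757 and 9263 cells with median depths between 3090 and 6648 UMIs, and the injected libraries held 1377 (PBS) and 2091 (MPSS) cells with medians of 10292 and 10417. Cells were put in classes by marker genes, cell by cell, and a class name such as microglia stands for cells like that type. Within a set, libraries shared 4 to 91 cell barcodes, at most 1.24% of the smaller library, and 0 of those cells were identical. Levels are given in CPM: the UMIs of a gene summed over a class in a library, scaled to the same class total in every library. A gene counts as higher or lower in a comparison when its CPM differed at least 2-fold, among genes with at least 10 UMIs over both sums. Shares of cells count cells with UMIs of at least 2 genes of a list after each cell was thinned to 1000 UMIs.

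In microglia the replication genes were highest at day 1 and the mitosis genes at day 3. The replication genes summed to 175 CPM (160 to 191) in the intact cord and to 783 (770 to 796) by day 1. By day 3 their sum was 564 CPM (555 to 574), and by day 7 it was 189 (183 to 196). For the mitosis genes the sums were 69.2 CPM (59.8 to 79.5) in the intact cord and 105 (100 to 110) by day 1, then 843 (832 to 854) by day 3 and 117 (112 to 123) by day 7. Of the 18 replication genes, 15 were at their highest at day 1, and the other 3 (Pclaf, Rrm2 and Tk1) joined all 21 mitosis genes at day 3. Counts of members by their highest library, here and for other classes below, are given without a share over all genes. The sums rest on 810, 1601, 3007 and 4096 microglia in the order of the libraries, with median depths of 3266.5, 10693, 7162 and 3953 UMIs.

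**Figure D1:**
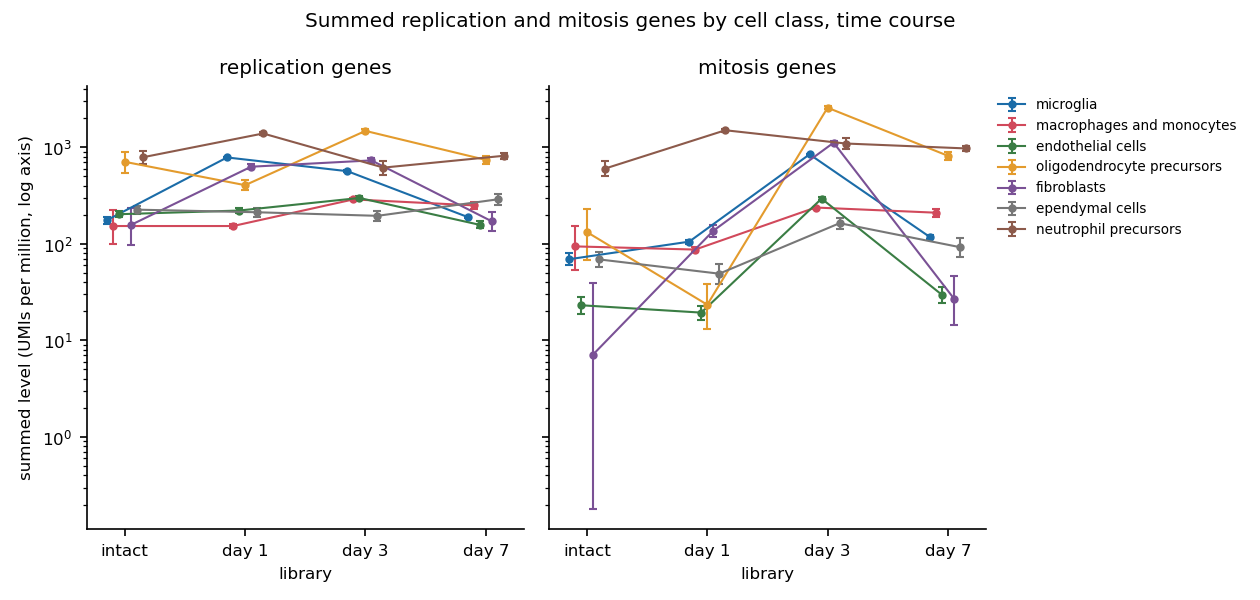
Summed CPM (log axis) of the replication genes and of the mitosis genes in each cell class and library, with exact 95% intervals for counting error. In microglia the replication sum is highest at day 1 (783 CPM) and the mitosis sum at day 3 (843 CPM).

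Between the intact cord and day 1, 17 of the 18 replication genes were higher in microglia, where 16.8% of all 12345 genes tested were higher. The median log2 ratio of the replication genes was 3.13, against −0.22 for all genes tested, and their sum was 4.47-fold higher (4.09 to 4.90). Pcna, the sliding clamp of the replication fork, was the exception, at 83.5 CPM in the intact cord and 151 at day 1, 1.81-fold higher (1.59 to 2.08). TMM scaling, which sets the ratio of most genes near 1, raised all log2 ratios of this comparison by 0.36, so that 24.6% of all genes were higher and 17.8% lower, and Pcna passed 2-fold too. Of the mitosis genes, 8 were higher and 3 were lower (25.0% of all genes were lower), with a median log2 ratio of 0.34 and a sum 1.52-fold higher (1.31 to 1.77). One intact cell held 24.4% of the intact mitosis UMIs, and without the cell of highest sum in each library the log2 ratio of the mitosis sum was 0.96 in place of 0.61.

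The genes of the replicative helicase, the motor that unwinds DNA at the fork, were higher throughout at day 1. Its 6 Mcm subunits and Gins2, a part of the GINS complex that activates it, had a summed level of 52.0 CPM in the intact cord and 394 at day 1, 7.59-fold higher (6.45 to 8.99). Mcm5 was at 3.16 CPM in the intact cord, 66.2 at day 1, 23.7 at day 3 and 5.86 at day 7, so that day 1 stood 21.0-fold above the intact cord (11.0 to 46.0). Mcm2 was at 5.27, 58.5, 14.5 and 3.93 CPM in the same order, 11.1-fold higher at day 1 (6.70 to 19.9). Mcm3 had the smallest ratio of the complex, at 22.8, 90.3, 33.8 and 20.5 CPM, 3.96-fold higher (3.09 to 5.16). All 7 genes were highest at day 1, and at day 7 their ratios to the intact cord lay between 0.746 (Mcm2, 0.423 to 1.40) and 2.33 (Gins2, 1.27 to 4.77).

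The regulators of the step from G1 into S had few UMIs in intact microglia. E2f1, a transcription factor of S-phase genes, was at 1.05 CPM (3 UMIs) in the intact cord, 35.6 at day 1, 21.6 at day 3 and 8.57 at day 7, a ratio of 33.9 at day 1 (11.5 to 165). Ccne1, a cyclin that drives Cdk2 at this step, had 0 UMIs in intact microglia and 17.5 CPM at day 1, at least 16.6-fold higher. Its partner gene Ccne2 had 1 UMI in intact microglia and 9.78 CPM at day 1, a ratio of 27.9 (4.93 to 1110). All of these were highest at day 1, with few intact UMIs to set their ratios.

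The clamp and chromatin copying genes, and the genes of nucleotide supply, were less uniform. Uhrf1, which guides maintenance of DNA methylation behind the fork, was at 2.46, 27.7, 10.9 and 2.77 CPM from the intact cord to day 7. Dut, which clears dUTP, was at 3.16, 48.0, 31.4 and 11.0 CPM, 15.2-fold higher at day 1 (7.97 to 33.4). Tyms (thymidylate synthase) and Rrm1 (the large subunit of ribonucleotide reductase) were 2.49-fold (1.81 to 3.5) and 2.62-fold (1.76 to 4.06) higher at day 1. Pclaf, a small Pcna-binding protein, Rrm2, the other subunit of ribonucleotide reductase, and Tk1, thymidine kinase, went on to higher levels at day 3.

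**Figure D2:**
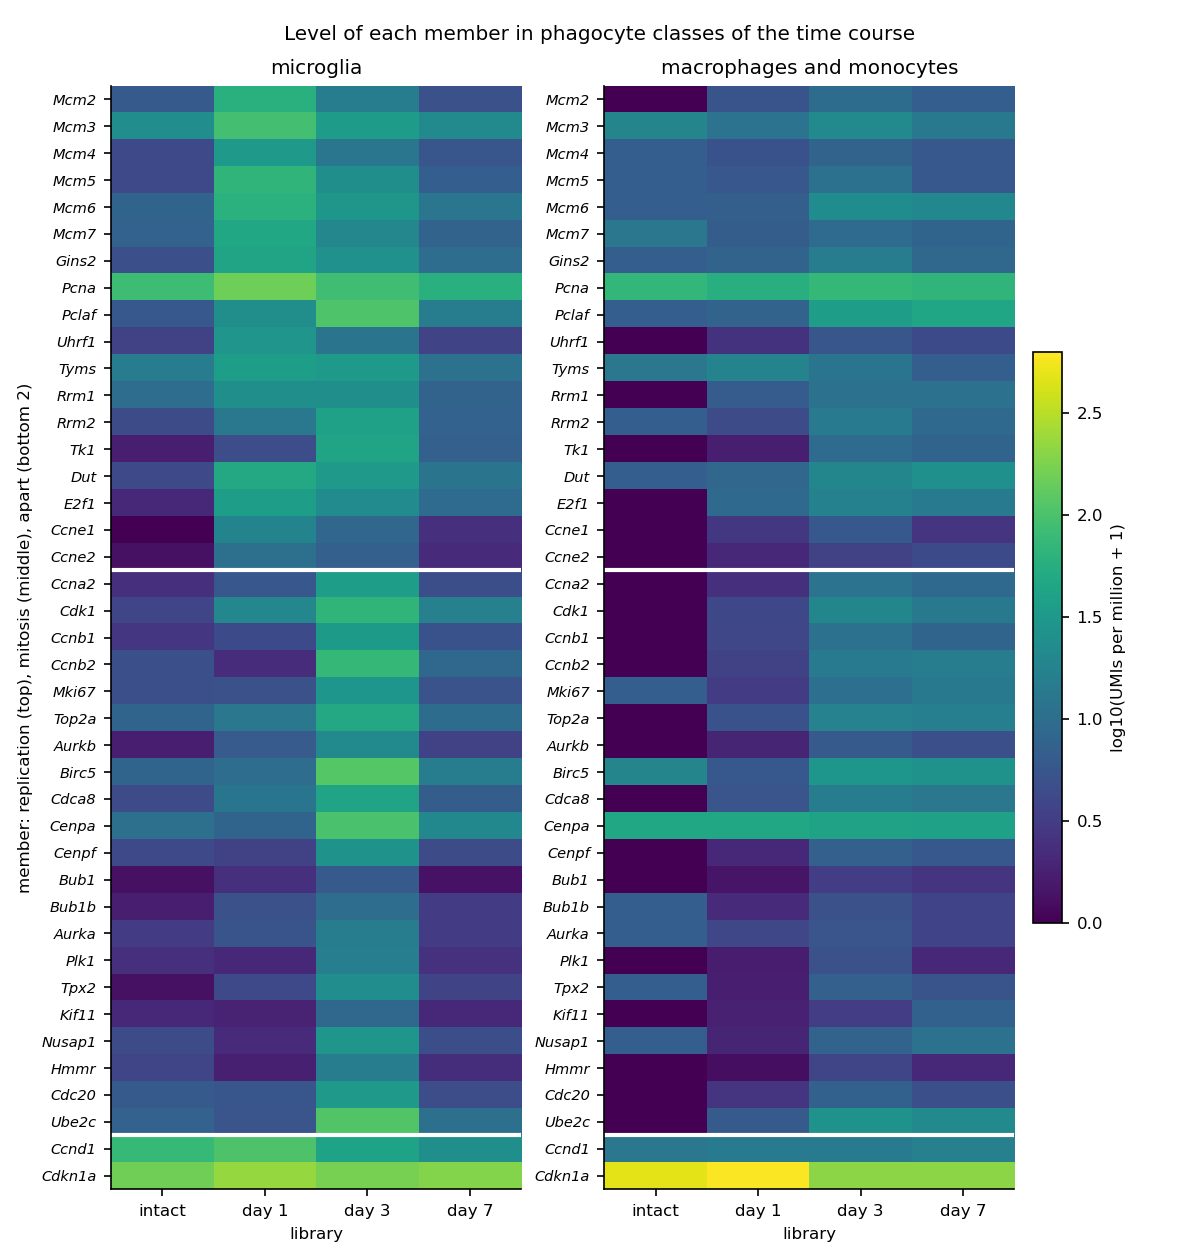
Heat map of log10(CPM + 1) of each replication and mitosis gene in microglia and in macrophages, 1 column per time-course library. In the microglia, the helicase rows are highest at day 1 and the mitosis rows at day 3.

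From day 1 to day 3 the lists moved apart. All 21 mitosis genes were higher at day 3, where 12.7% of all 13234 genes tested were higher, with a median log2 ratio of 2.88 against −0.15 for all genes and a sum 8.01-fold higher (7.63 to 8.42). Of the replication genes, 3 were higher and 8 were lower (14.4% of all genes were lower), with a median log2 ratio of −0.78 and a sum that was 0.721 times the day 1 level (0.704 to 0.738). With TMM scaling 7 replication genes were lower, since Mcm6 went from a log2 ratio of −1.02 to −0.88, and the mitosis count was the same. The helicase sum was 158 CPM at day 3 against 394 at day 1, with 6 of its 7 genes lower, and Mcm2 was 4.02-fold lower (3.56 to 4.55). Rrm1 did not differ beyond counting error, at 23.9 CPM and 23.6, a ratio of 0.986 (0.866 to 1.12).

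The 3 replication genes that were higher at day 3 were Tk1, Pclaf and Rrm2. Tk1 was at 0.702, 3.58, 42.0 and 6.19 CPM from the intact cord to day 7, 11.7-fold higher at day 3 than at day 1 (9.05 to 15.5). Pclaf was at 4.91, 23.4, 106 and 13.9 CPM, 4.54-fold higher (4.08 to 5.06). Rrm2 was at 3.51, 12.1, 39.3 and 6.53 CPM, 3.25-fold higher (2.79 to 3.8). These genes were above their intact level at day 1 too, so their course ran through both days.

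Among the mitotic cyclins and their kinase, Ccnb2 had the largest ratio of all members from day 1 to day 3. It was at 3.86 CPM in the intact cord, 1.25 at day 1, 73.0 at day 3 and 7.80 at day 7, 58.3-fold higher at day 3 than at day 1 (38.0 to 94.4). At day 1 it was 3.08-fold below the intact cord (1.34 to 6.69), as were Hmmr, a microtubule-binding protein, by 3.62-fold (1.30 to 9.43), and Nusap1, a spindle protein, by 2.94-fold (1.23 to 6.59). These were the 3 mitosis genes lower at day 1, where 25.0% of all genes tested were lower. The intact cell of highest mitosis sum, described above, was not left out for single genes. Cdk1, the kinase that drives entry into mitosis, went a different way, at 2.81, 18.8, 66.9 and 15.8 CPM. Its level was 6.69-fold above the intact cord by day 1 (3.35 to 15.6) and another 3.56-fold higher by day 3 (3.16 to 4.03). Ccna2, the cyclin of S and G2, and Ccnb1 were 7.39-fold (5.86 to 9.42) and 9.99-fold (7.58 to 13.4) higher at day 3 than at day 1.

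Mki67, a coat protein of mitotic chromosomes and the common proliferation marker, did not separate day 1 from the intact cord. It was at 3.86 CPM in the intact cord, 3.93 at day 1, 28.9 at day 3 and 4.2 at day 7, with a ratio of 1.02 at day 1 (0.534 to 2.14) and of 7.33 from day 1 to day 3 (5.69 to 9.59). Top2a, which untangles sister chromatids, was 4.02-fold higher from day 1 to day 3 (3.46 to 4.69). In the chromosomal passenger complex, which corrects spindle attachment, Birc5 was at 7.02, 9.06, 115 and 14.1 CPM, 12.6-fold higher (10.7 to 15.0). Its kinase Aurkb was already 7.64-fold above the intact cord at day 1, from 2 UMIs there (2.06 to 64.1). The passenger genes together were 6.91-fold higher from day 1 to day 3.

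Kinetochore and checkpoint genes, which tie chromosomes to the spindle, were 9.20-fold higher together. Cenpa, the histone that marks centromeres, was at 9.83, 7.03, 97.1 and 19.3 CPM, 13.8-fold higher from day 1 to day 3 (11.5 to 16.7). Bub1b, a checkpoint kinase, had the smallest ratio among the mitosis genes, 2.28 (1.73 to 3.04). The spindle genes (Aurka, Plk1, Tpx2, Kif11, Nusap1 and Hmmr) were 8.97-fold higher together, with Nusap1 at 23.6-fold (15.1 to 38.8). The genes of the anaphase-promoting complex, Cdc20 and Ube2c, which mark mitotic proteins for destruction, were 15.3-fold higher together (13.1 to 18.2). Ube2c was at 6.67, 4.53, 109 and 9.73 CPM, 24.0-fold higher from day 1 to day 3 (19.1 to 30.6).

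**Figure D3:**
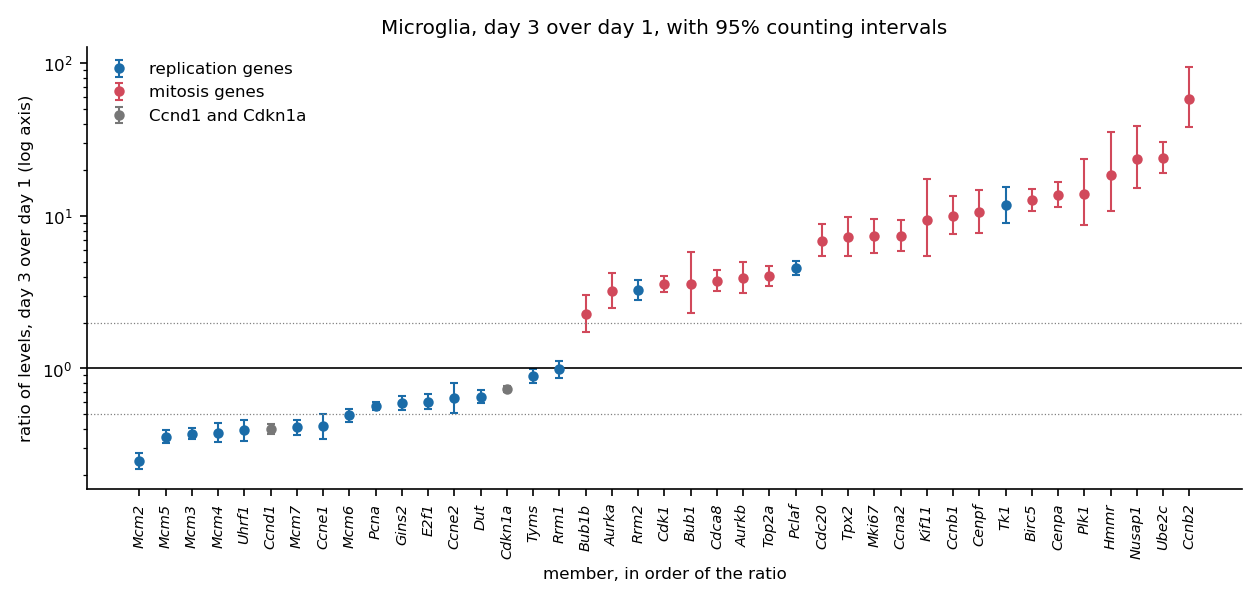
Ratio of CPM in microglia at day 3 over day 1 (log axis) for each replication and mitosis gene, with exact 95% intervals, and dotted lines at 2-fold. The 21 mitosis genes lie above the upper line, between Bub1b (2.28) and Ccnb2 (58.3), while 3 of the replication genes do (Tk1, Pclaf and Rrm2).

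By day 7 both lists were lower again in microglia. Between day 3 and day 7, 16 of the 18 replication genes and all 21 mitosis genes were lower, where 6.31% of all genes tested were lower. The replication sum was 2.98-fold lower (2.87 to 3.1) and the mitosis sum 7.18-fold lower (6.86 to 7.51). Pcna and Mcm3 were the replication genes under the 2-fold limit, 1.47-fold and 1.65-fold lower. Among the mitosis genes Bub1 had the largest difference, 13.3-fold, and Cdk1 the smallest, 4.25-fold. With TMM scaling 16 and 21 genes were lower again, where 5.98% of all genes were higher and 4.79% lower. Against the intact cord, 16 of the replication genes and all 21 mitosis genes were still higher at day 3, where 11.7% of all genes were. At day 7 the replication sum was 1.08 times (0.983 to 1.19) and the mitosis sum 1.70 times the intact level. There 7 of the replication and 8 of the mitosis genes were higher than in the intact cord, where 8.65% of all genes were, and 1 mitosis gene, Hmmr, was lower (2.12-fold, 0.822 to 4.87), where 28.7% of all genes were. With TMM scaling 11 genes of each list were higher and 0 lower, where 17.02% of all genes were higher and 10.02% lower. Over the alternatives tried the log2 ratio of the replication sum at day 7 ran from −0.16 to 0.78, so that its sign changed, and that of the mitosis sum ran from 0.73 to 1.43.

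Other genes of the same processes, from lists that hold none of the 41, followed the same days. In microglia 26 of 31 other replication genes were higher at day 1 than in the intact cord, with a median log2 ratio of 2.41, and 0 were lower, against 16.8% higher and 25.0% lower of all genes. Of 35 other mitosis genes tested, 13 were higher and 2 lower, with a median of 0.61. From day 1 to day 3, 0 of the 31 other replication genes were higher and 11 were lower, with a median of −0.82, against 12.7% higher and 14.4% lower of all genes. Over the same days 24 of 36 other mitosis genes were higher and 3 lower, with a median of 1.33. Of 27 other cell cycle regulators, 7 were higher and 1 was lower from day 1 to day 3.

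Grouping the members by the day of their highest level in microglia nearly repeats the lists. The day 1 group holds replication genes only, and the day 3 group holds all mitosis genes with Pclaf, Rrm2 and Tk1. The promoter counts by day are therefore largely those of the lists, and a link of motif to day was not tested. Of the 15 members highest at day 1 in microglia, 12 had a matched promoter, and E2F letters stood in 6 of them (Mcm2, Mcm3, Mcm5, Mcm6, Mcm7 and Tyms), the CHR in 1 and the CHR with a CCAAT box in 0. With any listed promoter the first 2 counts were 7, with Uhrf1, and 2, with Dut. Of the 24 members highest at day 3, 19 had a matched promoter, with E2F letters in 2 (Pclaf and Cdk1, 10.5%), the CHR in 13 (68.4%) and the CHR with a CCAAT box in 12 (63.2%). Pclaf, printed above with its E2F letters and no CHR, was the replication gene among the late members that carried E2F letters, and Cdk1, printed with 2 CHR matches, carries its E2F letters further upstream. Rrm2 had no matched promoter, and the matched promoter of Tk1 held 0 of the 3 motifs. The sequences are of rat, while the day 1 and day 3 tables name genes as in mouse.

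Cell by cell, most day 1 microglia with at least 2 genes of either list after thinning reached this number for replication genes alone. Cells with at least 2 replication genes made up 1.60% of intact microglia (0.857 to 2.73), 16.9% at day 1 (270 of 1601, 15.1 to 18.8), 8.21% at day 3 (247 of 3007, 7.26 to 9.25) and 1.64% at day 7 (1.27 to 2.07). Without thinning these shares were 11.0%, 75.0%, 35.6% and 11.0%. Cells with at least 2 mitosis genes made up 0.494%, 1.12% (0.668 to 1.77), 11.3% (10.2 to 12.5) and 1.12% of microglia in the same order, and 0.741%, 17.8%, 31.2% and 3.76% without thinning. Of the 278 microglia at day 1 with either list, 260 (93.5%) had replication genes alone, 10 had both and 8 had mitosis genes alone. Of the 474 at day 3, 134 had replication genes alone, 113 had both and 227 had mitosis genes alone. Such counts depend on the level of each list at this depth. A cell counted for replication genes alone may still carry mitosis genes.

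**Figure D4:**
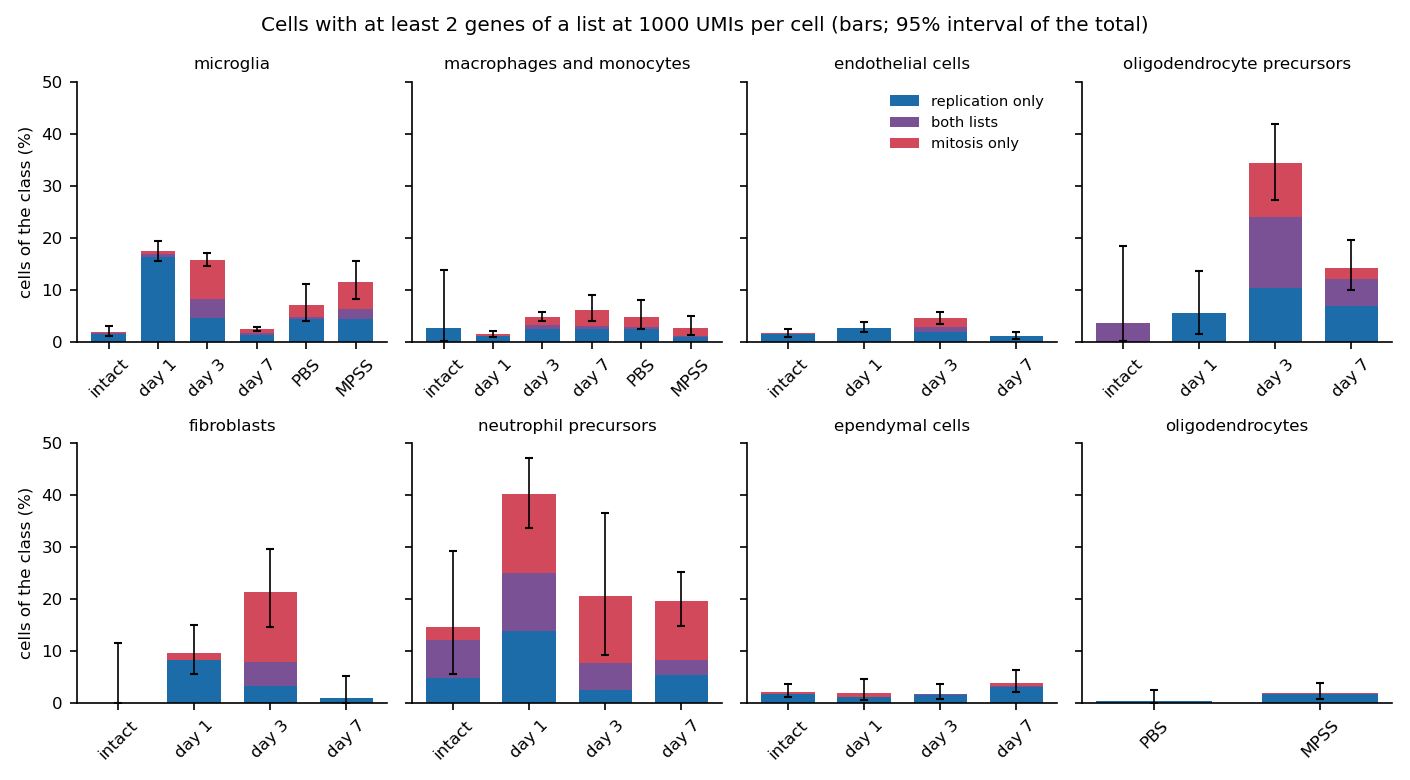
Percent of cells, after thinning to 1000 UMIs, with at least 2 replication genes only, with both lists, or with at least 2 mitosis genes only, for 8 cell classes and their libraries, with the exact 95% interval of the total. The microglia bar is mostly replication only at day 1 (260 of 278 cells) and is split over all 3 states at day 3.

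Mature neutrophils, which do not divide, and ependymal cells, which line the central canal, show how large such shares were elsewhere. The neutrophils at day 1 (232 cells, median depth 4213 UMIs) showed 3.88% for replication and 1.72% for mitosis genes. For either list their shares were 4.31% at day 1, 4.93% at day 3 (142 cells) and 5.77% at day 7 (52 cells). Of the 10 such neutrophils at day 1, 3 had both lists, and the part of other cells in this class was not tested. Ependymal cells, at median depths between 2290.5 and 5174 UMIs, showed 1.20% to 3.30% for replication and 0.260% to 0.824% for mitosis genes. The microglia shares for replication genes at days 1 and 3 and for mitosis genes at day 3 lay above these values, and the other microglia shares did not lie above all of them.

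The microglia of different days fell in different clusters, which were built without the cell cycle genes of all the lists. In the intact cord 93.6% lay in a cluster led by P2ry12 and Crybb1. At day 1, 75.2% lay in a cluster led by Ccl12, Lpl, Npy, Msr1 and Srm, with 787 CPM of replication and 104 CPM of mitosis genes, and 20.9% in one with 790 and 120 CPM. At day 3 a cluster with 36.0% of the microglia, led by Lag3, Siglech and P2ry12, had 177 and 184 CPM, and one with 29.1%, led by Birc5, Ccnb2 and Ube2c among other genes, had 980 and 1694 CPM. The replication genes were thus at about the same level in both day 1 clusters, while at day 3 the clusters differed several-fold for both lists. All 16 macrophage markers were detected in microglia at day 1 and at day 3, at summed levels of 732 and 734 CPM, and 15 of 16 in the intact cord at 114 CPM. Their part in these results was not tested.

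Macrophages and monocytes of the same libraries had low levels at day 1. Their replication genes summed to 153 CPM in the intact cord (99.8 to 224, 38 cells), 153 at day 1 (146 to 160, 2259 cells), 288 at day 3 (282 to 295, 2830 cells) and 250 at day 7 (228 to 274, 380 cells). Their mitosis genes summed to 94.0 CPM (53.7 to 153), 87.2 (81.8 to 92.8), 237 (232 to 243) and 210 (189 to 232) in the same order. Both sums were highest at day 3, as were 12 of the replication and 14 of the mitosis genes, while 4 of each list were highest at day 7. As a mean over cells the order of day 3 and day 7 turned, with log2 ratios of day 7 over day 3 of 0.17 for the replication and 0.57 for the mitosis sum in place of −0.20 and −0.18. From day 1 to day 3, 10 of the 18 replication genes and 19 of the 21 mitosis genes were higher, where 11.2% of all 12557 genes tested were higher, and the sums were 1.89-fold (1.79 to 1.99) and 2.72-fold (2.55 to 2.91) higher. With TMM scaling 14 and 19 were higher, where 13.7% of all genes were higher and 10.1% lower. Their median log2 ratios were 1.07 and 2.29, against −0.10 for all genes.

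Tk1 had the largest ratio of the replication genes in macrophages from day 1 to day 3, 12.2 (6.09 to 28.6), and Tyms the smallest, 0.654 (0.543 to 0.790). Mcm6 was 3.63-fold higher (2.82 to 4.73), at 6.06 and 22.0 CPM, where in microglia it was 2.02-fold lower over the same days, under 2-fold with TMM scaling (log2 −0.88). Cdk1 and Birc5 were 5.94-fold and 5.98-fold higher. Cenpa differed from the other mitosis genes here: it was at 47.0 CPM in the intact cord, 45.1 at day 1, 39.7 at day 3 and 38.9 at day 7, a ratio of 0.880 from day 1 to day 3 (0.792 to 0.980). Aurka, a spindle pole kinase, was 1.54-fold higher (1.04 to 2.34).

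Between the classes within a library, the microglia were ahead at day 1 and day 3. At day 1 all 18 replication genes were higher in microglia than in macrophages, where 26.2% of all genes tested were higher, with a median log2 ratio of 2.78 against 0.36 for all genes and a sum 5.13-fold higher (4.88 to 5.39). Uhrf1 was 17.5-fold, Mcm5 14-fold and Mcm2 13.3-fold higher, and Pcna 2.65-fold. At that day the mitosis sum was 1.21-fold higher, with 11 of the 21 mitosis genes higher and Cenpa 6.41-fold lower. At day 3 all 21 mitosis genes and 9 of the replication genes were higher in microglia, where 19.5% of all genes were higher, and the mitosis sum was 3.55-fold higher (3.45 to 3.65).

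At day 7 the order of the class sums was the other way round. There 8 of the 21 mitosis genes and 3 of the replication genes were lower in microglia than in macrophages, where 8.38% of all genes tested were lower, and the mitosis sum was 1.79-fold lower (1.60 to 1.99). Mki67 was 2.96-fold lower in microglia and Kif11, a spindle motor, 6.18-fold lower. The day 7 macrophages were of mixed makeup. A cluster led by Gpnmb and Ms4a7 held 54.7% of them, with 141 CPM of replication and 50.5 CPM of mitosis genes, and one led by the neutrophil progenitor genes Prtn3, Elane and Mpo held 76 of the 380, with 729 and 843 CPM. One cell held 13.7% of their mitosis UMIs. Without the clusters led by MHC class II or progenitor genes, a setting chosen after seeing the data, the macrophages' mitosis sum from day 3 to day 7 had a log2 ratio of −1.38. The Gpnmb cluster lay below the day 7 microglia sums of both lists (189 and 117 CPM). The reversed order therefore does not hold for that cluster.

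Endothelial cells, the lining of blood vessels, showed the mitosis genes mainly at day 3. Their mitosis genes summed to 23.1 CPM in the intact cord (1140 cells), 19.4 at day 1 (1196 cells), 293 at day 3 (282 to 305, 1417 cells) and 29.6 at day 7 (1242 cells). All 21 mitosis genes were higher at day 3 than at day 1, where 8.82% of all genes tested were higher, with a median log2 ratio of 4.07 against −0.13 for all genes and a sum 15.1-fold higher (12.7 to 18.1). All 21 were lower again at day 7, where 7.05% of all genes were lower, and the sum was 9.89-fold lower (8.15 to 12.1). Ube2c was at 0.994, 0.698, 38.6 and 1.39 CPM from the intact cord to day 7, 55.4-fold higher from day 1 to day 3 (23.5 to 172). Aurkb and Hmmr had 0 UMIs at day 1 and were at least 16.7-fold and 14.1-fold higher at day 3.

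The replication genes of endothelial cells moved less, at 202, 221, 298 and 157 CPM. From day 1 to day 3, 6 of the 18 were higher, where 8.82% of all genes tested were higher, and the sum was 1.35-fold higher (1.27 to 1.44). The 6 genes were Tk1 (36.6-fold), Pclaf (20.3-fold), Rrm2 (9.52-fold), Ccne1 (7.36-fold), Ccne2 (4.93-fold) and E2f1 (2.87-fold). The helicase genes lay between 0.609 (Mcm2) and 1.94 (Mcm5). Tk1, Pclaf and Rrm2 were thus higher at day 3 than at day 1 in microglia, macrophages and endothelial cells alike. From day 3 to day 7, 11 of the 18 were lower, where 7.05% of all genes tested were lower, and the sum was 1.90-fold lower.

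Few endothelial cells carried the mitosis genes. Cells with at least 2 of them made up 0.175% of intact endothelial cells, 0 of 1196 at day 1, which allows a share of up to 0.251%, 2.61% at day 3 and 0.0805% at day 7. At day 3 a cluster with 75.4% of the endothelial cells, led by Itm2a and Spock2, had 149 CPM of mitosis genes, and a cluster with 12.4% (175 cells), led by Apln and Ackr1, had 781 CPM. The latter cluster had held 91.2% of the endothelial cells at day 1, with 19.3 CPM. Without marked doublets the day 3 over day 1 log2 ratio of the replication sum was 0.18 in place of 0.43, and that of the mitosis sum 3.63 in place of 3.92. As a mean over cells they were 0.051 and 2.94.

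Oligodendrocyte precursors, the dividing glia of the adult cord, reached the highest summed mitosis level among the classes described here, on few cells. Their mitosis genes summed to 23.4 CPM at day 1 (15 UMIs, 72 cells), 2561 at day 3 (2466 to 2659, 175 cells) and 814 at day 7 (218 cells). In the intact cord 28 cells held 12 UMIs of these genes, of which 83.3% came from 1 cell. All 21 mitosis genes and 14 of the 18 replication genes were higher at day 3 than at day 1, where 15.0% of all genes tested were higher. Their sums were 109-fold (66.2 to 196) and 3.65-fold (3.20 to 4.18) higher. Ccnb1 and Cdk1 had 0 UMIs at day 1 and were at least 39.7-fold and 24.9-fold higher.

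Pclaf was at 66.1, 3.12, 365 and 149 CPM in these precursors from the intact cord to day 7, a ratio of 117 from day 1 to day 3 on 2 UMIs at day 1 (32.2 to 970). The 4 replication genes that stayed under 2-fold were Mcm2, Mcm3, Mcm4 and Mcm5. At day 3, 24.0% of the precursors (42 of 175) carried at least 2 replication genes and the same number carried at least 2 mitosis genes. At day 1 the shares were 5.56% and 0 of 72, which allows up to 4.17%, and at day 7 they were 11.9% and 7.34%. From day 3 to day 7, 17 of the 21 mitosis genes and 10 of the replication genes were lower, where 8.65% of all genes were lower, and the mitosis sum was 3.14-fold lower (2.86 to 3.47).

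Fibroblasts, which form the scar, had raised replication sums from day 1 and a raised mitosis sum at day 3. Their replication genes summed to 157 CPM in the intact cord (30 cells), 628 at day 1 (168 cells), 730 at day 3 (126 cells) and 171 at day 7 (104 cells), and their mitosis genes to 7.11 CPM (1 UMI), 136, 1113 (1062 to 1166) and 27.1. From day 1 to day 3 all 21 mitosis genes were higher, where 9.51% of all genes tested were higher, with a median log2 ratio of 2.87 against 0.03 and a sum 8.16-fold higher (7.07 to 9.47). The replication sum was 1.16-fold higher (1.07 to 1.27), with 4 genes higher (Pclaf, Tyms, Tk1 and Rrm2). Mcm2 was 2.01-fold and Mcm3 2.39-fold lower, where 6.72% of all genes tested were lower. Of the replication genes 10 were highest at day 1, all 6 Mcm genes among them, and 8 at day 3.

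By day 7 the fibroblast genes were low again. All 21 mitosis genes and 13 of the replication genes were lower than at day 3, where 12.2% of all genes tested were lower, and the mitosis sum was 41.1-fold lower (24.0 to 77.3), on 13 UMIs at day 7. Fibroblasts with at least 2 mitosis genes made up 1.19% of the class at day 1, 18.3% at day 3 and 0 of 104 at day 7, which allows up to 2.88%.

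Neutrophil precursors, cells of the marrow lineage that still divide, carried both lists at every time. Their replication genes summed to 786, 1386, 615 and 814 CPM and their mitosis genes to 600, 1497, 1091 and 971 CPM from the intact cord to day 7, in 41, 216, 39 and 240 cells. At day 1, 40.3% of them had at least 2 genes of either list, 30 cells with replication genes alone, 24 with both and 33 with mitosis genes alone. In contrast to the microglia of that library, mitosis genes were thus as frequent as replication genes (26.4% and 25.0% of cells). Astrocytes at day 1 (208 cells) had 9.13% with replication genes and 0 of 208 with mitosis genes, which allows up to 1.44%.

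The genes apart from both lists had courses of their own. Ccnd1, the D-type cyclin that drives cells out of G1, was at 74.8, 102, 41 and 23.9 CPM in microglia from the intact cord to day 7, and was 2.49-fold lower at day 3 than at day 1. In endothelial cells it was at 92.0, 333, 97.9 and 39.6 CPM, 3.40-fold lower at day 3 than at day 1. In both classes it was highest at day 1, before the mitosis genes. Cdkn1a, which encodes the Cdk inhibitor p21, was at 154, 228, 167 and 190 CPM in microglia and at 488, 603, 205 and 204 CPM in macrophages. In macrophages it was highest where the cell cycle genes were lowest or near it, in the intact cord and at day 1. In microglia it was highest at day 1, where the replication sum was highest too.

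In the injected libraries the question was whether MPSS and PBS differ in these genes 2 weeks after injury. In microglia the mitosis genes summed to 308 CPM with PBS (287 to 330, 233 cells) and 560 with MPSS (536 to 584, 322 cells), 1.82-fold higher with MPSS (1.68 to 1.97). With MPSS the class includes cells of a small cluster led in part by neutrophil granule genes, with a high mitosis level, described below. Of the 20 mitosis genes measured, 7 were higher with MPSS, where 3.61% of all 9084 genes tested were higher, and 0 were lower, where 3.20% were. They were Ccnb1 (7.82-fold, 4.22 to 16.1), Cdc20 (3.44-fold, 1.92 to 6.62), Cenpa (2.71-fold), Birc5 (2.37-fold), Ube2c (2.22-fold), Nusap1 (2.04-fold) and Cenpf (2.01-fold). The replication genes summed to 344 CPM with PBS and 382 with MPSS, 1.11-fold higher (1.02 to 1.20), and none of the 17 measured passed 2-fold in either direction. The median log2 ratios were 0.88 for mitosis and 0.20 for replication genes, against −0.01 for all genes.

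Ccnb1 was at 4.18 CPM with PBS and 32.7 with MPSS. Ube2c was at 28.9 and 64.1 CPM, and Birc5 at 26.2 and 62.3 CPM. Aurka did not differ, at 60.4 and 56.2 CPM, a ratio of 0.931 (0.755 to 1.15), and it was at 10.9 and 11.5 CPM in the macrophages of the same libraries. Of the other mitosis genes 8 of 32 were higher with MPSS and 0 lower, and of the other replication genes 0 of 26 were higher.

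These differences rest on few cells. Microglia with at least 2 mitosis genes made up 2.61% of the class with PBS (6 of 230, 0.963 to 5.59) and 7.17% with MPSS (23 of 321, 4.60 to 10.6), and the intervals overlap. Without thinning the shares were 18.9% and 21.1%. For replication genes the shares were 4.78% and 6.23%. Oligodendrocytes as a background class (253 and 447 cells, median depths 10807 and 11830 UMIs) had 0 of 220 with mitosis genes with PBS, which allows up to 1.36%, and 0.243% with MPSS. One MPSS cluster of 28 microglia (8.70%) had 4220 CPM of mitosis genes, while the cluster with 65.2% of the MPSS microglia had 98.6 CPM and the same cluster, with 75.1% of the PBS microglia, 91.9 CPM. The small cluster was led by the neutrophil granule genes RatNP-3b, Defa5 and Np4 beside Ube2c, Cenpf and Mki67, and the part of those cells in the difference was not tested. None of the alternatives for the class sums was set to leave this cluster out.

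**Figure D5:**
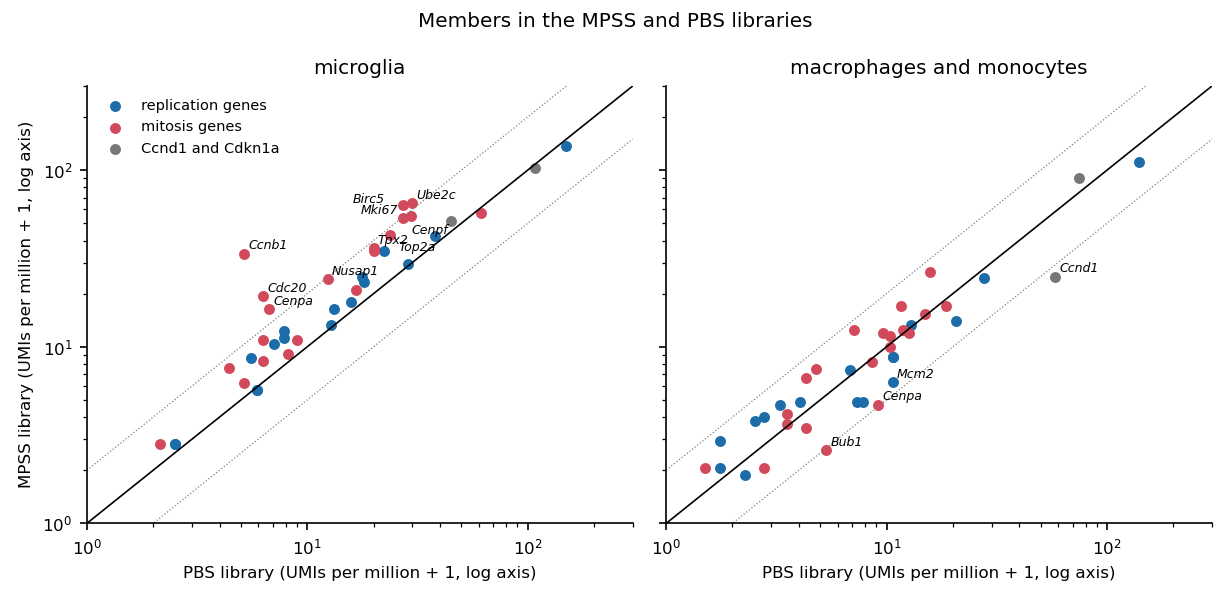
CPM + 1 (log axes) of each replication and mitosis gene, and of Ccnd1 and Cdkn1a, with PBS (x) and with MPSS (y) in microglia and in macrophages, with dotted lines at 2-fold. In microglia the mitosis genes lie along or above the upper line more often than the replication genes, which stay between the lines, and Ccnb1 lies farthest from the diagonal (7.82-fold). The MPSS microglia include cells of the small cluster led in part by neutrophil granule genes.

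In macrophages the injected libraries differed little. Their replication genes summed to 257 CPM with PBS (261 cells) and 212 with MPSS (351 cells), 1.21-fold lower, a ratio of 0.825 (0.758 to 0.898), and their mitosis genes to 151 and 171 CPM, a ratio of 1.14 (1.03 to 1.26). Of 16 replication genes tested, 1 was higher with MPSS (Ccne2, 2.55-fold, 0.673 to 14.2), where 2.96% of all 9482 genes were higher. Of 19 mitosis genes, 2 were lower (Bub1, 2.72-fold, and Cenpa, 2.19-fold), where 4.32% of all genes were lower. One cell held 40.9% of the PBS and 1 held 30.0% of the MPSS mitosis UMIs. Ccnd1 was at 57.2 CPM with PBS and 24.0 with MPSS, 2.38-fold lower (1.92 to 2.97). In fibroblasts the mitosis genes summed to 585 CPM with PBS (106 cells) and 38.7 with MPSS (129 cells), and 1 PBS cell held 43.6% of those UMIs.

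Over microglia, macrophages and the phagocytes between them, pooled as phagocytes, the day 1 ratio of the replication genes was smaller than in microglia alone. Their replication genes summed to 181, 520, 439 and 198 CPM and their mitosis genes to 71.6, 98.2, 541 and 132 CPM from the intact cord to day 7. At day 1, 15 of the 18 replication genes were higher than in the intact cord, where 16.0% of all 13159 genes tested were higher, and the sum had a log2 ratio of 1.52 (1.40 to 1.65). Of the mitosis genes 7 were higher and 3 lower (26.9% of all genes were lower), with a log2 ratio of 0.45. At day 3, 14 of the replication and all 21 mitosis genes were higher than in the intact cord, where 13.3% of all 13848 genes were, with log2 ratios of 1.28 and 2.92. With TMM scaling 24.3% of all genes were higher and 18% lower at day 1, and 23.7% and 15.9% at day 3. At day 7 the log2 ratios were 0.13 and 0.89, and with MPSS against PBS they were −0.11 and 0.20. At least 2 replication genes were found in 6.09% of phagocytes at day 3 (5.52 to 6.70) and 3.60% with PBS, and at least 2 mitosis genes in 7.06% (6.45 to 7.71) and 3.31%. The class held 864 phagocytes in the intact cord, of which 810 were microglia, against 1601 microglia among 4099 phagocytes at day 1.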

How the data were processed

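Single-cell RNA libraries of 6 samples were analysed, 1 per group. The deposited values are raw UMI counts in a matrix of genes by cells, which the authors made with Cell Ranger 3.0.2 per the submitters' processing notes; the aligner settings and genome build are not given in the sources used here. Introns, strand and the filter behind the barcodes are not stated there either. The genes, classes and lists were chosen with earlier results of these data known.

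A cell was kept if it had 200 or more genes, 500 or more UMIs and a mitochondrial share of no more than 20%. All cells of the time course and 1377 of 1513 (PBS) and 2091 of 2339 (MPSS) cells passed. The intact and day 1 tables each lost 77 names that the other tables do not hold. Each cell was given to the class whose markers, each scaled to its 99th percentile, had the highest mean score. That score had to be at least 0.15, lead the next by 0.05 and rest on at least 2 markers. Phagocytes with at least 2 progenitor genes, or a mature or precursor neutrophil score of at least 0.15, became neutrophils. Other phagocytes with at least 2 dendritic genes became dendritic cells. The rest were microglia or macrophages if those 2 scores differed by at least 0.05, and unresolved otherwise. Clusters (scanpy 1.11.5, leidenalg 0.10.2, 2000 variable genes, 30 components, 20 neighbours, resolution 1) were computed without the cell cycle genes. The doublet caller's own threshold marked 0.0363% to 0.503% of cells, so that the cells of highest score were marked at 0.8% per 1000 cells; they were kept, and left out as an alternative.

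Per class and library, the counts of each gene were added up and divided by the total of that class. Intervals of sums are Poisson, of ratios binomial and of shares Clopper-Pearson, all exact at 95%. A gene with 0 UMIs was set to 3 UMIs for a lower bound. Scaling by TMM factors used edgeR 4.0.16 in R 4.3.3; the rest used Python 3.11.15 with numpy 2.4.6, scipy 1.17.1, pandas 2.3.3 and matplotlib 3.10.9. The ratio intervals, the 2-fold call and the thinning were tested on simulated counts. The gate, the clusters, the doublet marking and genes with few UMIs were not simulated. Every one of the 41 genes is accounted for in the counts. The members named with their values are examples and do not include every largest and smallest ratio of a role group. Alternatives were the scaling, the mean over cells, the count minimum, cell filters, doublets, the gate, the thinning depth, the genes needed per cell and the cell of highest sum.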

Additional observations from a re-analysis of the deposited data

Results flagged for a closer look

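The replication genes moved in opposite directions in the 2 phagocyte classes, and the difference between the classes was not tested, since each day is 1 library. From day 1 to day 3 the log2 ratio of their summed CPM was −0.47 in microglia (−0.51 to −0.44) and 0.92 in macrophages (0.84 to 0.99). In the injected libraries the log2 ratio with MPSS over PBS was 0.15 in microglia (0.03 to 0.27) and −0.28 in macrophages (−0.40 to −0.16). Both pairs kept their directions under the alternatives run for the class sums. None of these was set to leave out the small injected cluster led by neutrophil granule genes.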

How the results depend on the processing

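No paired analysis was possible because each group is 1 library, and for the same reason no library could be left out. Of 128 alternatives for the phagocyte results, 83 gave the same value within counting error, 42 moved it and 3 turned its direction. TMM factors (1.36 for intact phagocytes, 0.850 to 1.01 for the others) gave log2 ratios over the intact cord of 1.95, 1.94 and 0.80 for replication and 0.88, 3.57 and 1.56 for mitosis genes at days 1, 3 and 7. The mean over cells gave 1.13, 0.84 and −0.089 for replication genes, so that day 7 turned. Medians over members, at either count minimum, gave 2.30, 2.08 and 0.71 for replication and, at day 3, 2.66 for mitosis genes, and for MPSS over PBS 0.01 and 0.0062 for replication genes, the other direction from the sum. Classes from clusters gave 0.88, 3.36 and 1.31 for mitosis genes at days 1, 3 and 7. Without the cell of highest sum these were 0.76, 3.26 and 1.21, and 0.28 for MPSS over PBS.

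Shares depend on the depth and on the genes needed. Thinned to 500 or 2000 UMIs or not thinned, and with 1 or 3 genes needed, the share of phagocytes with replication genes at day 3 was 2.52%, 11.1%, 34.6%, 20.4% and 2.73%, and 5.43% without doublets; with PBS it was 1.97%, 7.00%, 43.4%, 20.1% and 1.44%. For mitosis genes at day 3 it was 4.08%, 10.2%, 22.8%, 16.6% and 4.46%. For mitosis genes with PBS it was 1.69% at 500 UMIs, 15.6% not thinned and 10.1% with 1 gene.

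Of 272 alternatives for the class sums, 213 gave the same value, 56 moved it and 3 turned a value beyond its counting error, all in macrophages: replication genes at day 7 over intact without clusters led by MHC class II or progenitor genes (−0.032), and day 7 over day 3 as a mean over cells (0.17 for replication, 0.57 for mitosis genes). Counting also values within counting error of no difference, 6 of 34 class sums changed sign under some alternative: the 3 above, both lists in macrophages at day 1 over intact (−0.23 to 0.42 for replication, −0.31 to 0.31 for mitosis genes), and replication genes in microglia at day 7 over intact (−0.16 as a mean over cells). Of 360 alternatives for single genes in microglia 8 moved the value, all under TMM factors.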

Other observations

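Genes outside all 41 whose level followed the lists most closely were ranked by Pearson's r of log2(CPM + 10) with the mean of a list over 37 class and library sums. These sums share libraries and depth, so r is a description and has no p. The replication genes were followed most closely by Dtl (0.891), a ubiquitin ligase adaptor of S phase, by Cenps (0.866) and by Ezh2 (0.846), a histone methyltransferase. The mitosis genes were followed by Knstrn (0.908), a spindle and kinetochore protein, Cep55 (0.887), which acts in the last cut between daughter cells, and Lockd (0.884). Of 10 genes in each ranking 1 was shared, Cenpm. In microglia Dtl was at 0.351 CPM in the intact cord, 11.8 at day 1 and 4.49 at day 3, while Knstrn was at 1.05, 5.54 and 45.8 CPM and the mitotic kinase Pbk at 1.40, 3.58 and 40.5 CPM.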
